A study of Mus musculus with 34 samples.

Results

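The 8 genes described here encode the core of 2 neuromodulator systems that act on brain synapses, the endocannabinoid system (Cnr1, Dagla, Daglb, Mgll, Faah and Napepld) and the adenosine receptors of neurons (Adora1 and Adora2a). They were taken by symbol from a table of 18548 genes as genes of these 2 systems, with earlier results of these data known. All 8 were in the table and had a mean value of at least 10 in each brain region. RNA sequencing libraries had been made from the prefrontal cortex (PFC), hippocampus and striatum of mice with a heterozygous mutation of Myt1l (HT) and of wild-type mice (WT). Myt1l is a transcription factor gene that is active in developing and mature neurons.

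The groups were 6 HT and 6 WT striatal libraries, 5 HT and 6 WT hippocampal libraries, and 5 HT and 6 WT PFC libraries, 34 in all. Both genotypes were male C57BL/6J mice at postnatal day 56 that had received no treatment, and wild-type and mutant pups had been reared together. The labels do not describe the Myt1l allele beyond its being a heterozygote mutation. They do not say whether a group's libraries came from separate animals, so the p-values measure the spread between these libraries only.

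Endocannabinoids are lipid messengers that are made on demand in the postsynaptic neuron and travel back to the presynaptic terminal, where the cannabinoid receptor encoded by Cnr1 reduces transmitter release. Dagla and Daglb encode the diacylglycerol lipases that make 2-arachidonoylglycerol, Mgll encodes the lipase that degrades it, Napepld encodes a phospholipase that makes anandamide and related amides, and Faah encodes the amide hydrolase that degrades them. Adenosine acts through an inhibitory receptor, encoded by Adora1 and widespread in the brain, and a stimulatory receptor, encoded by Adora2a and in the striatum best known from spiny neurons of the indirect pathway, which also carry the dopamine receptor Drd2.

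On GRCm38, with GENCODE M21 gene bounds, Cnr1 (ENSMUSG00000044288) spans chr4:33924593-33948831 on the plus strand and Dagla (ENSMUSG00000035735) spans chr19:10245265-10304877 on the minus strand. Daglb (ENSMUSG00000039206) spans chr5:143464584-143505942 on the plus strand, and Mgll (ENSMUSG00000033174) spans chr6:88724412-88828360 on the plus strand. Faah (ENSMUSG00000034171) spans chr4:115967145-116017926 and Napepld (ENSMUSG00000044968) spans chr5:21662901-21701396, both on the minus strand. Adora1 (ENSMUSG00000042429) spans chr1:134199223-134235431 on the minus strand, and Adora2a (ENSMUSG00000020178) spans chr10:75316877-75334784 on the plus strand. Exons of Daglb overlap those of Rac1 on the other strand over 2309 bases, exons of Adora1 overlap those of Mybph over 1162 bases, and exons of Mgll overlap an antisense gene over 167 bases. Whether the quantification used strand is not given in the sources used here, so reads from these overlaps cannot be assigned with certainty. Rac1 had 7416 to 8737 normalized counts over all libraries, above Daglb in each, whereas Mybph had 2.08 to 28.6, below Adora1 in each.

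Faah, Napepld and Adora1 had their highest level in hippocampus, then PFC, then striatum, whereas Mgll had its highest level in PFC, as described below. The promoter windows of these 4 genes are shown because their libraries did not overlap between any pair of regions. Adora2a, for which this also held, has no window shown. How many of all genes separate the regions in this way was not counted, so the lack of overlap is not read as particular to these genes. Each window is 300 bases, most of them before the annotated start, and is given 5′ to 3′ on the gene's strand, from RefSeq on GRCm38.p6. For Adora1 and Mgll, which have 2 listed starts each, the one farther upstream was taken. Capitals mark CG dinucleotides. The windows lie at chr4:116017875-116018174, chr5:21701573-21701872 and chr1:134235408-134235707 on the minus strand, and at chr6:88724162-88724461 on the plus strand.
Faah: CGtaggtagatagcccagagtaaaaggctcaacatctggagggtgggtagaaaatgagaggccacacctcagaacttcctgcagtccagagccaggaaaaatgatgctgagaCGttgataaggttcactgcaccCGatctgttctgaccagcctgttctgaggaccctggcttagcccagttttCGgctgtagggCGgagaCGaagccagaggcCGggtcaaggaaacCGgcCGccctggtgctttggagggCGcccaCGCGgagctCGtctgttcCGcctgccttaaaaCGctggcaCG
Napepld: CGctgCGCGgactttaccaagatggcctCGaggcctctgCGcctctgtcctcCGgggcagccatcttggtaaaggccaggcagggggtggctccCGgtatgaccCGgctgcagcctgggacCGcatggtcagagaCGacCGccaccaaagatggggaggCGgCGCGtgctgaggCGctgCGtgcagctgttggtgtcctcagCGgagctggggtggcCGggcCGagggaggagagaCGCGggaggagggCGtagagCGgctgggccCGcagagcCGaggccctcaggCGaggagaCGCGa
Adora1: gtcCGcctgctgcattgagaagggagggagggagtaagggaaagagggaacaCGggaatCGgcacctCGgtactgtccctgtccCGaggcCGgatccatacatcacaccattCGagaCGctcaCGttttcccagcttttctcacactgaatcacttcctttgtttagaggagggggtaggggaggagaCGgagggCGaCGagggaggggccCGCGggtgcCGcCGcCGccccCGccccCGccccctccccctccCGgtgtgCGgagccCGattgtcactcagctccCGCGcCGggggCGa
Mgll: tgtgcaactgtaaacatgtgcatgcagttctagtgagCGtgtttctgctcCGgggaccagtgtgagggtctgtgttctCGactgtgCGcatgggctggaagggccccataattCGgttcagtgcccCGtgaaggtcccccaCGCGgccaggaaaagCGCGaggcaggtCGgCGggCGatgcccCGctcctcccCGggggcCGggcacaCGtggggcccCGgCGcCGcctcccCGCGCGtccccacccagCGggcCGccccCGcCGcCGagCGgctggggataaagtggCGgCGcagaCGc
The Faah window holds 16 CG dinucleotides and 57.7% G or C, the fewest of the 4. Napepld, Adora1 and Mgll hold 28, 26 and 32 CG dinucleotides, with 70.3%, 66% and 70% G or C. Over 32851 promoter windows the median was 7 CG dinucleotides and 52.7% G or C, and 33% had at least as many CG dinucleotides as Faah, against 9.52% for Mgll. The letters GGGCGG, searched on both strands, occur 2 times in the Faah window, 3 times in the Adora1 window, once in the Mgll window and in no place in the Napepld window; 35.7% of all windows hold them. All 4 windows held more CG dinucleotides than the median window.

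Library totals of the deposited values were 25786041 to 29798959 after the authors' scaling, so the depth of each library is unknown. Myt1l itself was at 7064 to 9505 in HT and 6923 to 8275 in WT striatum, at 6645 to 7550 in HT and 5552 to 7186 in WT hippocampus, and at 6388 to 7525 in HT and 5578 to 7992 in WT PFC. The groups overlapped in each region, so the level of the targeted gene does not check the genotype labels. The column headers carry 12 codes, 10 of them in 3 regions and 2 in 2 regions, and 1 code, 31-67M, stands on libraries labelled WT in PFC and HT in hippocampus and striatum. The library with that code had the highest Dagla and the highest Adora1 of its region in all 3 regions. The labels were followed for it.

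Tissue identity was checked with lists of 8 markers. The summed level of spiny neuron markers was 80814 to 120409 in striatum, 13362 to 14667 in hippocampus and 13412 to 19722 in PFC, and that of hippocampal field markers was 17524 to 22371 in hippocampus against 5449 to 6865 in striatum and 5491 to 6945 in PFC. Markers of cortical excitatory neurons summed to 60754 to 66175 in PFC, to 35576 to 41650 in hippocampus and to 6655 to 18197 in striatum. Within the striatum, 5 libraries (HT replicates 1 and 2 and WT replicates 1, 4 and 5) had sums of 13589 to 18197 and the other 7 had 6655 to 7808. All 8 of these cortical markers were above 10 in at least 1 striatal library. Choroid plexus markers ranged from 2424 to 88016 in hippocampus and from 1899 to 91082 in striatum. Markers of thalamus and neighbouring regions summed to 9965 to 15541 in striatum, 3102 to 5921 in hippocampus and 3298 to 4084 in PFC. Whether striatal cells themselves make some of these markers was not tested, so the sum is not read as thalamic tissue. Oligodendrocyte markers summed to 220942 to 291181 in striatum, 135523 to 192530 in hippocampus and 88119 to 138889 in PFC. The part of these tissues and cells in the region differences was not tested.

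The question posed by the design was whether heterozygous mutation of Myt1l changed brain RNA levels in each region. For the 8 genes no difference between HT and WT passed the test. Limma called 0 of 8 genes in striatum, 0 of 8 in hippocampus and 0 of 8 in PFC at an adjusted p under 0.05, where 0% of 17054, 0% of 16820 and 0% of 16667 genes were called. An unadjusted p under 0.05 was likewise found for 0 of the 8 genes in any region, in the mean of regions or in the differences between regions, beside 1004, 1145 and 833 of all genes in the 3 regions. In the mean over the 3 regions 0 of 8 were called, beside 16 of 17051 genes or 0.0938% (0.0469% higher, 0.0469% lower). Tests of whether the HT effect differed between regions called 0 of 8 genes in each of 3 pairs, with 0% of all genes called. The HT and WT libraries overlapped for every one of the 8 genes in every region. How many of all genes overlapped in this way was not counted, so the overlap is not read as particular to the 8.

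**Figure D1:**
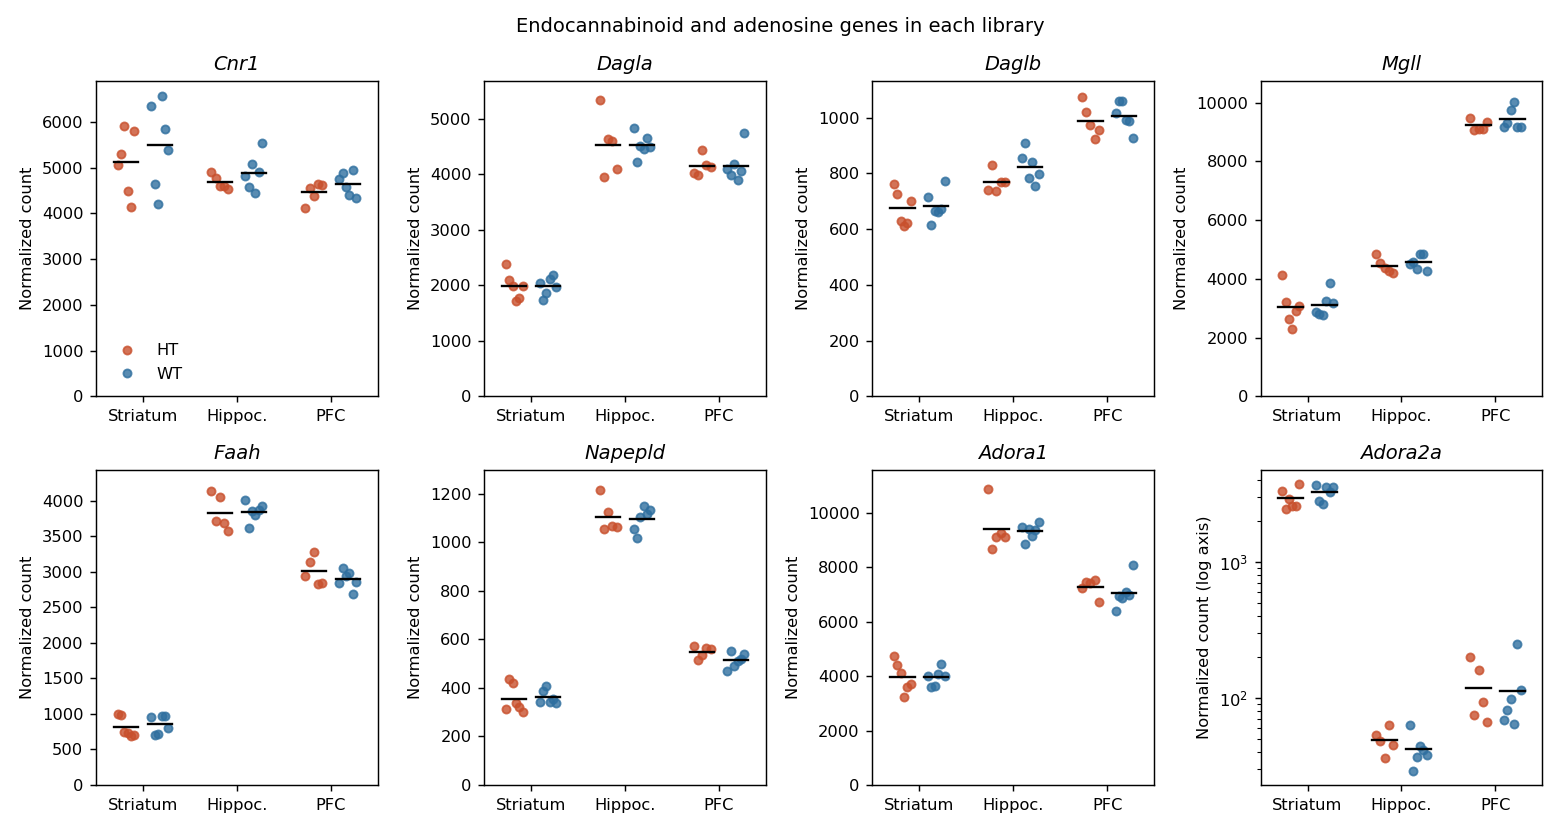
Normalized count (vertical axis, log scale for Adora2a only) of the 8 genes in each library, by region and genotype, with HT in orange left of WT in blue and a bar at each group's mean (n = 5 to 6 libraries). HT and WT points overlap in every panel, while Adora2a lies between 2467 and 3731 in striatum and between 29.3 and 251 elsewhere.

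**Figure D2:**
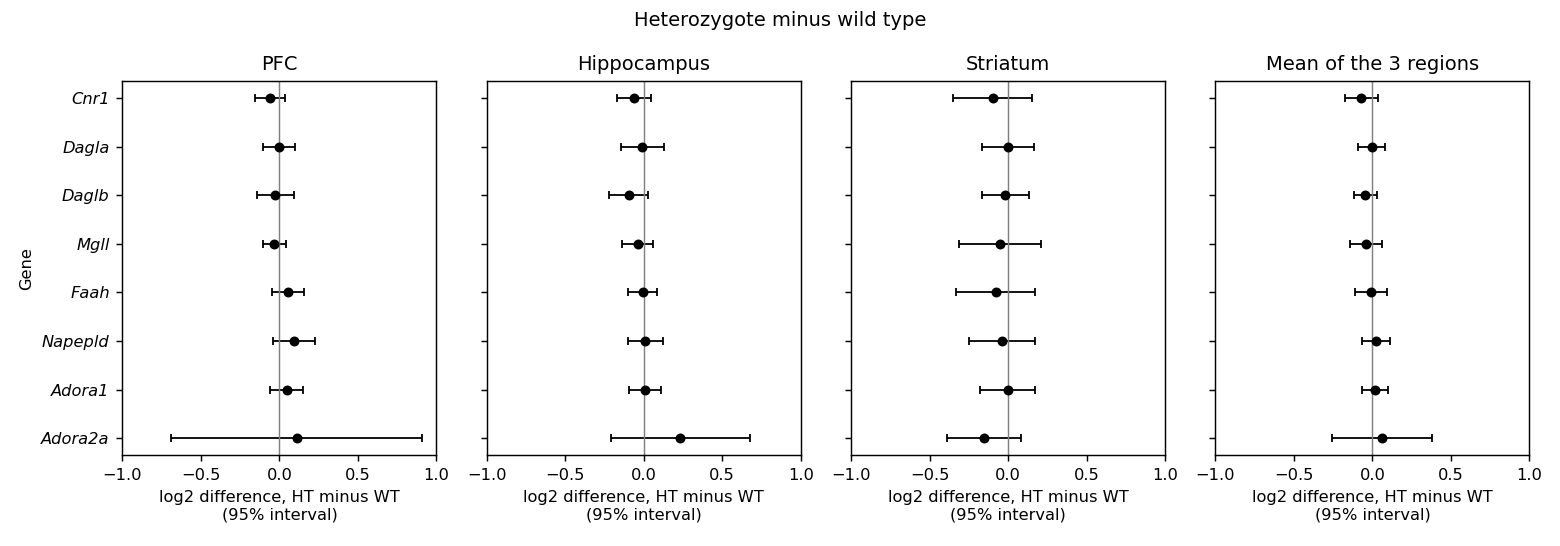
Difference between HT and WT on the log2(value + 1) scale for each gene in PFC, hippocampus, striatum and the mean of the 3 regions, with 95% intervals from limma (n = 5 or 6 HT and 6 WT libraries a region). All 32 intervals include 0, and the widest is that of Adora2a in PFC, from -0.69 to 0.91.

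The intervals show what size of difference these libraries leave possible. For the 7 genes other than Adora2a, the 95% intervals of the HT minus WT difference lay within -0.35 and 0.23 on the log2 scale in all 3 regions. For Adora2a they were wider, from -0.39 to 0.08 in striatum, from -0.21 to 0.68 in hippocampus and from -0.69 to 0.91 in PFC. Exact 2-sided permutation tests over the libraries of a region gave no p below 0.0671 in 24 comparisons, where the smallest possible p was 0.00216 in striatum and 0.00433 in hippocampus and PFC. All 8 point estimates were below 0 in striatum, from -0.15 for Adora2a to -0.002 for Dagla, none of them past the test. The median of the 8 differences was -0.05 in striatum, -0.01 in hippocampus and 0.02 in PFC, beside medians over all genes of -0.004, -0.001 and -0.003. Among libraries with codes beginning with 35 (4 HT and 4 WT in striatum and PFC, 3 HT and 4 WT in hippocampus) 0 of 8 genes were called, with differences of -0.21 to 0.01 in striatum, -0.08 to 0.35 in hippocampus and -0.07 to 0.66 in PFC. Codes beginning with 31 or with 37 give at most 1 library a group each, too few for a value.

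Across regions the same genes differed strongly. Adora2a and Cnr1 were higher in striatum than in PFC, and the other 6 genes were lower, in both genotypes. In this contrast limma called 8 of 8 genes in HT, beside 56% of 17080 genes (28.8% higher, 27.3% lower), and 8 of 8 in WT, beside 57% of 17017 genes (29.2% higher, 27.8% lower). Between striatum and hippocampus 7 of 8 genes were called, with Adora2a higher and 6 lower, beside 46.3% of all genes in HT (23.2% higher, 23.2% lower) and 48% in WT (24.1% higher, 23.9% lower). Between hippocampus and PFC 6 of 8 were called, with Faah, Napepld and Adora1 higher and Daglb, Mgll and Adora2a lower, beside 43.6% of all genes in HT (22.5% higher, 21.1% lower) and 46.8% in WT (23.9% higher, 22.9% lower). With so many of all genes called between regions, the counts set the 8 genes little apart, and the sizes of the differences describe them better. Among libraries with codes beginning with 35 alone, 7 of 8, 7 of 8 and 6 of 8 genes were called in the 3 contrasts in each genotype. In every alternative fit run, these among them, at least 6382 of all genes were called in each contrast and genotype. The median of the 8 striatum minus PFC differences was -0.77 in HT and -0.70 in WT, beside 0.01 over all genes in both. In whole-tissue RNA fewer cells of a type and less RNA per cell cannot be told apart.

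**Figure D3:**
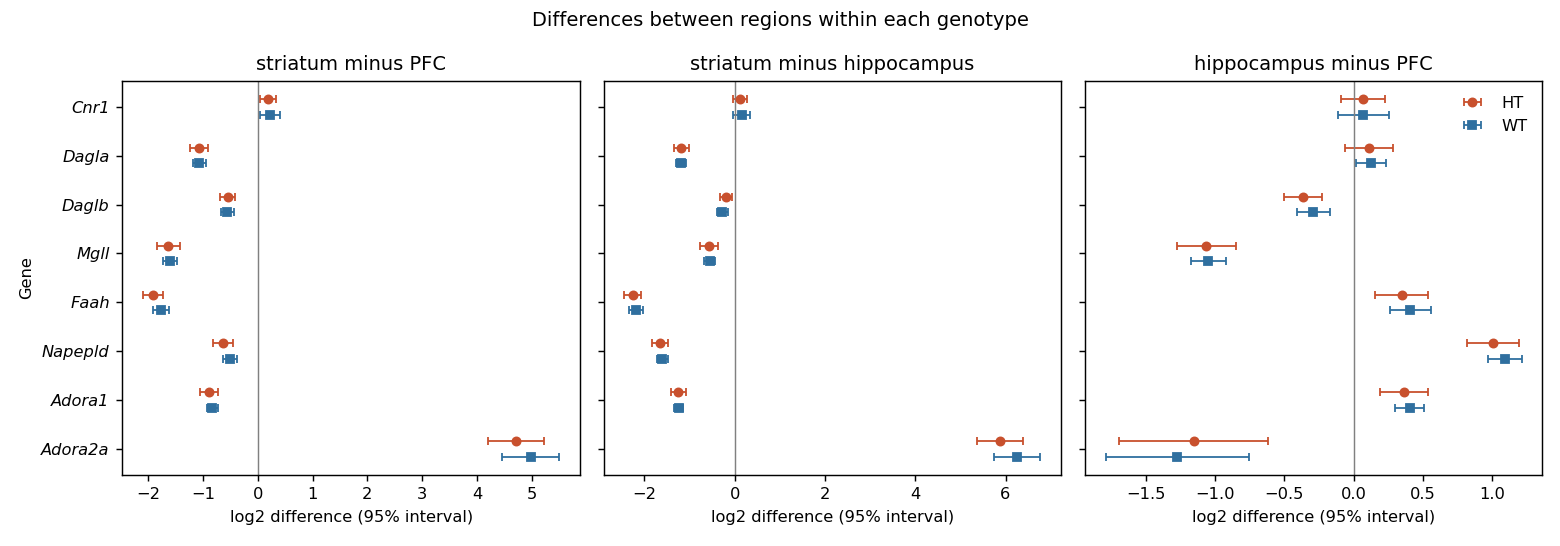
Differences between regions on the log2(value + 1) scale for each gene, with HT as orange circles above WT as blue squares and 95% intervals from limma (n = 5 or 6 libraries a group). Adora2a stands alone to the right in both contrasts with striatum, at 4.72 in HT and 4.98 in WT against PFC, and Cnr1 lies nearest 0.

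Cnr1, the presynaptic cannabinoid receptor, was the most even of the 8 across regions. In striatum it ran from 4130 (median 5179) to 5904 normalized counts in HT and from 4206 (median 5614) to 6573 in WT. Hippocampal libraries had 4905, 4765, 4606, 4599 and 4523 in HT and 4438 to 5537 (median 4863) in WT. PFC libraries had 4116, 4564, 4383, 4642 and 4622 in HT and 4345 to 4951 (median 4657) in WT. Libraries of every pair of regions overlapped. The striatum minus PFC difference was 0.19 (SE 0.07, adjusted p = 0.0366) in HT and 0.22 (SE 0.09, adjusted p = 0.0328) in WT. It lost the call without the 5 striatal libraries high in cortical markers (0.17, adjusted p = 0.102 in HT; 0.02, adjusted p = 0.849 in WT). These 5 libraries had 5053 to 6573 Cnr1, and the other 7 had 4130 to 5904. It also lost the call without the libraries whose code begins with 31, at 0.19 (adjusted p = 0.0582) in HT and 0.16 (adjusted p = 0.163) in WT. Leaving out single libraries gave values of 0.14 to 0.25 in HT and 0.17 to 0.30 in WT. The call was lost in 6 of 16 such fits in HT (PFC replicates 1, 2 and 3 and striatal replicates 2, 3 and 6) and in 6 of 18 in WT (PFC replicates 3, 4 and 6 and striatal replicates 1, 4 and 5). Striatum minus hippocampus was 0.12 (adjusted p = 0.211) in HT and 0.15 (adjusted p = 0.155) in WT.

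HT libraries held slightly less Cnr1 on average in all 3 regions, without passing the test. The log2 estimates of Dagla, Daglb and Mgll were also below 0 in all 3 regions, so this is not particular to Cnr1. For Cnr1 the HT minus WT difference was -0.10 (SE 0.12, adjusted p = 0.945) in striatum, -0.06 (SE 0.05, adjusted p = 0.86) in hippocampus and -0.06 (SE 0.05, adjusted p = 0.978) in PFC. In PFC all 5 HT libraries were below the WT mean of 4649. Without the 5 striatal libraries high in cortical markers the striatal difference was 0.09, of the other sign. Cnr1 varied more between striatal libraries, with a coefficient of variation of 13.8% in HT and 17.1% in WT, than between PFC libraries, with 4.94% in HT and 5.35% in WT.

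The lipases that make 2-arachidonoylglycerol, Dagla and Daglb, were both lowest in striatum. Dagla had 1710 to 2389 normalized counts (median 1983) in HT and 1737 to 2187 (median 2001) in WT striatum. In hippocampus it had 5329, 3939, 4624, 4593 and 4093 in HT and 4221 to 4826 (median 4494) in WT. PFC libraries had 4013, 3978, 4434, 4171 and 4128 in HT and 3897 to 4734 (median 4072) in WT. Each striatal library was below each library of the other regions, which overlapped each other. Striatum minus PFC was -1.07 (SE 0.08, adjusted p = 1.24e-09) in HT and -1.07 (SE 0.05, adjusted p = 1.63e-13) in WT. Hippocampus minus PFC was 0.11 (SE 0.08, adjusted p = 0.297) in HT and 0.12 (SE 0.05, adjusted p = 0.0604) in WT. This last difference in WT passed the test without the code 31 libraries (0.14, adjusted p = 0.0318), which include the PFC library with the highest Dagla.

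Daglb, the other diacylglycerol lipase, followed the order PFC, hippocampus, striatum. It averaged 676 ± 63.6 in HT and 683 ± 53.8 in WT striatum (SD, n = 6 each). In hippocampus the means were 769 ± 37.3 in HT (SD, n = 5) and 823 ± 55.9 in WT (SD, n = 6), and in PFC they were 990 ± 59.2 in HT (SD, n = 5) and 1007 ± 49.4 in WT (SD, n = 6). Striatum and hippocampus overlapped, whereas all PFC libraries were above all others. Striatum minus hippocampus was -0.19 (SE 0.06, adjusted p = 0.0183) in HT and -0.27 (SE 0.06, adjusted p = 0.000452) in WT. Without hippocampal HT replicate 2, the highest HT library there, the HT value was -0.16 (adjusted p = 0.0544). Hippocampus minus PFC was -0.37 (adjusted p = 0.00015) in HT and -0.29 (adjusted p = 0.000213) in WT. Dagla exceeded Daglb in each library, by a median ratio of 2.86 in HT and 2.84 in WT striatum, 5.98 in HT and 5.63 in WT hippocampus, and 4.31 in HT and 3.98 in WT PFC. These ratios are of normalized counts without correction for transcript length.

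Neither lipase differed between genotypes past the test. For Dagla the HT minus WT differences were -0.002, -0.01 and -0.001 in striatum, hippocampus and PFC, with standard errors of 0.05 to 0.08. Without the library on code 31-67M of each region they were -0.06, -0.07 and 0.04, with no adjusted p below 0.724. Daglb gave its largest in hippocampus, at -0.10 (SE 0.06, adjusted p = 0.803), where 1 of 5 HT libraries was above the WT mean and the exact permutation p was 0.0952. The hippocampal Dagla value of 5329 in HT replicate 1, on code 31-67M, was above all other libraries of the series.

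Mgll, which encodes the monoacylglycerol lipase that ends 2-arachidonoylglycerol signalling, had a steep gradient with its peak in PFC. PFC libraries held 9483, 9075, 9119, 9104 and 9354 normalized counts in HT and 9168 to 10039 (median 9248) in WT. Hippocampal libraries held 4833, 4523, 4370, 4259 and 4208 in HT and 4254 to 4862 (median 4544) in WT. Striatal libraries held 2283 to 4117 (median 2980) in HT and 2783 to 3847 (median 3019) in WT. No libraries of different regions overlapped. Striatum minus PFC was -1.63 (SE 0.10, adjusted p = 1.62e-10) in HT and -1.61 (SE 0.06, adjusted p = 2.21e-15) in WT, and hippocampus minus PFC was -1.07 (adjusted p = 1.41e-07) in HT and -1.05 (adjusted p = 3.59e-12) in WT. Striatum minus hippocampus was smaller, at -0.57 (adjusted p = 9.65e-05) in HT and -0.56 (adjusted p = 7.3e-08) in WT.

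The relation between the lipases that make and degrade 2-arachidonoylglycerol therefore differed by region as a ratio of normalized counts. The ratio of Dagla to Mgll had a median of 0.65 in HT and 0.639 in WT striatum, 1.058 in HT and 0.998 in WT hippocampus, and 0.441 in HT and 0.435 in WT PFC. Hippocampal ratios, of 0.871 to 1.102 in HT and 0.92 to 1.067 in WT, lay above all others, and the genotypes overlapped in each region. Mgll was the steadiest of the 8 genes in PFC, with coefficients of variation of 1.96% in HT and 3.9% in WT. The HT minus WT difference of Mgll was -0.05 (SE 0.12, adjusted p = 0.973) in striatum, -0.04 (SE 0.05, adjusted p = 0.915) in hippocampus and -0.03 (SE 0.03, adjusted p = 0.978) in PFC. Mgll in striatum was highest, at 4117, in HT replicate 1, on code 31-67M. Without that library the striatal difference was -0.15 (adjusted p = 0.751), without all libraries whose code begins with 31 it was -0.17 (adjusted p = 0.802), and with codes beginning with 35 only it was -0.20 (adjusted p = 0.72).

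Faah, which encodes the hydrolase of anandamide, was highest in hippocampus and showed the largest fall in striatum of the 8. Hippocampal libraries held 4135, 3714, 4052, 3691 and 3577 normalized counts in HT and 3618 to 4006 (median 3867) in WT. PFC libraries held 2939, 3144, 3278, 2833 and 2839 in HT and 2692 to 3054 (median 2902) in WT. In striatum Faah was at 694 to 991 (median 743) in HT and 697 to 975.2 (median 878) in WT. No libraries of different regions overlapped. Striatum minus hippocampus was -2.26 (SE 0.09, adjusted p = 4.46e-13) in HT and -2.19 (SE 0.07, adjusted p = 1.14e-16) in WT, so that striatal WT Faah was 0.22 times the hippocampal level. Striatum minus PFC was -1.91 (adjusted p = 4.66e-12) in HT and -1.78 (adjusted p = 5.67e-15) in WT, and hippocampus minus PFC was 0.35 (adjusted p = 0.00486) in HT and 0.41 (adjusted p = 5.36e-05) in WT.

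Within the striatum Faah fell into 2 sets of libraries. The 5 libraries high in cortical excitatory markers had 961 to 991 and the other 7 had 694 to 796, with no overlap, and each set holds both genotypes. Dagla split the same way, at 2034 to 2389 against 1710 to 1987, and Adora1 overlapped slightly, at 4006 to 4751 against 3241 to 4104. Mgll had 2876 to 4117 in the 5 libraries and 2283 to 3163 in the 7. For Adora2a the same libraries overlapped broadly, at 2467 to 3653 against 2571 to 3731, as did Napepld, at 314 to 435 against 303 to 420. The part of cortical tissue in these values was not tested. Without the 5 libraries the WT striatum minus PFC difference of Faah was -1.97, and 0 of 8 genes were called between HT and WT striatum.

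**Figure D4:**
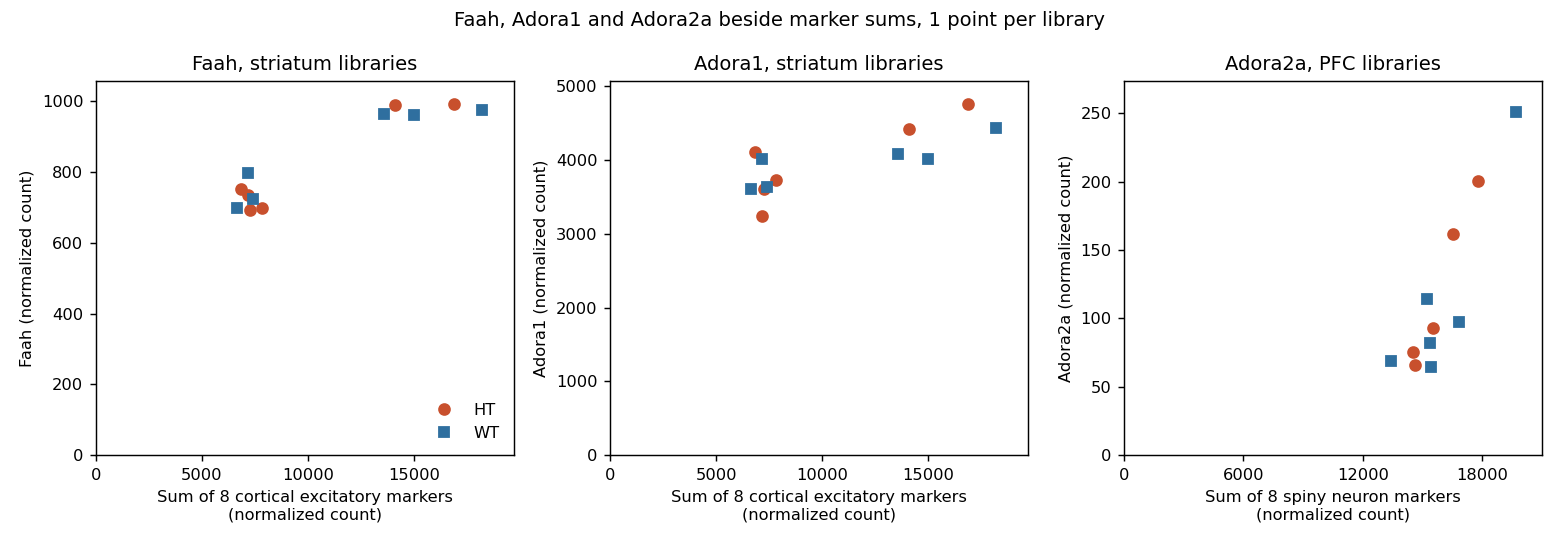
Normalized count of Faah and Adora1 in the 12 striatal libraries against the summed level of 8 cortical excitatory markers, and of Adora2a in the 11 PFC libraries against the sum of 8 spiny neuron markers, with HT as orange circles and WT as blue squares. Faah lies at 961 to 991 in the 5 striatal libraries with marker sums of 13589 to 18197 and at 694 to 796 in the other 7.

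Napepld, which encodes an enzyme that makes anandamide, had the order of Faah, with hippocampus above PFC by a fold of 2.01 in HT and 2.13 in WT. It averaged 1105 ± 68.5 in HT (SD, n = 5) and 1098 ± 50.05 in WT hippocampus (SD, n = 6), 550 ± 22.4 in HT (SD, n = 5) and 515 ± 30.5 in WT PFC (SD, n = 6), and 355 ± 57.4 in HT and 362 ± 29.6 in WT striatum (SD, n = 6 each). No libraries of different regions overlapped. Hippocampus minus PFC was 1.01 (SE 0.09, adjusted p = 3.07e-08) in HT and 1.09 (SE 0.06, adjusted p = 9.86e-13) in WT, and striatum minus hippocampus was -1.65 (adjusted p = 1.05e-11) in HT and -1.60 (adjusted p = 6.45e-16) in WT. Striatum minus PFC was -0.64 (adjusted p = 3.24e-06) in HT and -0.51 (adjusted p = 1.34e-07) in WT.

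Among the 8 genes the PFC difference of Napepld had the smallest exact permutation p between genotypes, and it did not pass. PFC libraries held 571, 517, 537, 564 and 559 in HT and 472 to 554 (median 517) in WT. All 5 HT libraries were above the WT mean, and the groups overlapped. The HT minus WT difference was 0.09 (SE 0.06, adjusted p = 0.977), with an exact permutation p of 0.0671. The ratio of Napepld to Faah had a median of 0.451 in HT and 0.393 in WT striatum, 0.289 in HT and 0.288 in WT hippocampus, and 0.194 in HT and 0.176 in WT PFC, as a ratio of normalized counts. For Faah the HT minus WT differences were -0.08 (SE 0.12), -0.007 (SE 0.04) and 0.05 (SE 0.05) in striatum, hippocampus and PFC, with no adjusted p below 0.952. Without striatal HT replicate 1 the striatal Faah difference was -0.14 (adjusted p = 0.784).

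Adora1, the inhibitory adenosine receptor, was high in every region and highest in hippocampus. Hippocampal libraries held 10877, 8662, 9120, 9287 and 9120 normalized counts in HT and 8882 to 9661 (median 9391) in WT. PFC libraries held 7237, 7456, 7414, 7553 and 6741 in HT and 6400 to 8083 (median 6977) in WT. Striatal libraries held 3241 to 4751 (median 3913) in HT and 3607 to 4431 (median 4009) in WT. No libraries of different regions overlapped. Hippocampus minus PFC was 0.36 (adjusted p = 0.00133) in HT and 0.40 (adjusted p = 6e-07) in WT, striatum minus PFC was -0.89 (adjusted p = 1.59e-08) in HT and -0.83 (adjusted p = 3.33e-12) in WT, and striatum minus hippocampus was -1.25 (adjusted p = 1.93e-10) in HT and -1.24 (adjusted p = 3.36e-15) in WT.

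Genotype made no difference to Adora1 that passed the test. The HT minus WT difference was -0.004 (SE 0.08, adjusted p = 0.997) in striatum, 0.01 (SE 0.05, adjusted p = 0.988) in hippocampus and 0.05 (SE 0.05, adjusted p = 0.978) in PFC. Without hippocampal HT replicate 1, at 10877 and on code 31-67M, the hippocampal value was -0.04 (adjusted p = 0.738). Without the libraries on that code in striatum and PFC the values were -0.06 (adjusted p = 0.862) and 0.09 (adjusted p = 0.884).

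Adora2a, the stimulatory adenosine receptor, was far higher in striatum than elsewhere. Striatal libraries held 2467 to 3731 normalized counts (median 2727) in HT and 2641 to 3653 (median 3399) in WT. Hippocampal libraries held 53.2, 48.4, 36.0, 63.5 and 45.4 in HT and 29.3 to 63.4 (median 39.9) in WT. PFC libraries held 201, 75.3, 162, 92.8 and 66.3 in HT and 64.7 to 251 (median 89.8) in WT. No libraries of different regions overlapped, although the lowest PFC library, at 64.7, was just above the highest hippocampal library, at 63.5. Striatum minus hippocampus was 5.87 (SE 0.24, adjusted p = 3.99e-12) in HT, a fold of 58.6, and 6.25 (SE 0.25, adjusted p = 5.95e-14) in WT, a fold of 76.3. Striatum minus PFC was 4.72 (SE 0.24, adjusted p = 6.07e-11) in HT, a fold of 26.3, and 4.98 (SE 0.25, adjusted p = 1.87e-12) in WT, a fold of 31.6. In WT 0.112% of all genes differed as much as Adora2a between striatum and hippocampus, and 0.452% between striatum and PFC.

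Hippocampus minus PFC was -1.16 (SE 0.25, adjusted p = 0.00131) in HT and -1.27 (SE 0.25, adjusted p = 0.000277) in WT for Adora2a. PFC HT replicate 1 and WT replicate 5, at 201 and 251, also had the highest PFC sums of spiny neuron markers, at 17812 and 19722 against 13412 to 16852 in the other 9. Without these libraries the difference was -0.93 in HT and -1.01 (adjusted p = 3.25e-05) in WT. The part of striatal tissue in the PFC values was not tested.

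Between genotypes Adora2a differed in striatum by -0.15 (SE 0.11, adjusted p = 0.912), in hippocampus by 0.23 (SE 0.21, adjusted p = 0.882) and in PFC by 0.11 (SE 0.37, adjusted p = 0.993), as HT minus WT. The summed level of the indirect pathway markers measured, of which 7 of 8 were in the table, was 17215 to 24645 in HT and 22103 to 26427 in WT striatum. Direct pathway markers summed to 10097 to 14950 in HT and 10380 to 13298 in WT striatum. General spiny neuron markers summed to 80814 to 120409 in HT and 90985 to 116062 in WT striatum. Medians of these sums were lower in HT for each list. Limma called 0 markers of these lists between HT and WT striatum. Among libraries with codes beginning with 35 the PFC difference of Adora2a was 0.66 (SE 0.28, adjusted p = 0.954). Leaving out single PFC libraries gave values of -0.11 to 0.37. The ratio of Adora1 to Adora2a had a median of 1.41 in HT and 1.22 in WT striatum, 200.9 in HT and 238.9 in WT hippocampus, and 81.3 in HT and 77.8 in WT PFC. The striatal ratios ran from 0.998 to 1.79 in HT and from 1.097 to 1.38 in WT. They are ratios of normalized counts without correction for transcript length. Divided by merged exon length, WT striatal Adora1 averaged 685 per kb, below Adora2a at 1057.

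Divided by the merged exon length of each gene, the union of its annotated exons, levels could be set side by side roughly. The lengths of the transcripts present are not known, and the order depends on this choice. Without the division Daglb stood above Napepld in WT striatum (683 against 362) and WT PFC (1007 against 515), and below it in WT hippocampus (823 against 1098). In WT striatum Adora2a led with 1057 ± 138 normalized counts per kb, followed by Cnr1 (854 ± 146), Adora1 (685 ± 52.9), Mgll (614 ± 79.7), Dagla (345 ± 28.9), Faah (109 ± 16.4), Napepld (91.5 ± 7.49) and Daglb (71.4 ± 5.63), each as mean ± SD over 6 libraries. In WT hippocampus the order was Adora1 (1612 ± 46.8), Mgll (898 ± 50.1), Dagla (787 ± 35.1), Cnr1 (760 ± 60.8), Faah (491 ± 16.9), Napepld (277 ± 12.7), Daglb (86.0 ± 5.84) and Adora2a (13.8 ± 3.76). In WT PFC it was Mgll (1860 ± 72.6), Adora1 (1221 ± 95.7), Dagla (723 ± 52.1), Cnr1 (721 ± 38.6), Faah (370 ± 16.3), Napepld (130 ± 7.72), Daglb (105 ± 5.17) and Adora2a (36.97 ± 22.9). The SD ranges of Dagla and Cnr1 overlapped in hippocampus and in PFC, and in striatum those of Adora2a and Cnr1, of Cnr1 and Adora1, of Adora1 and Mgll, and of Faah and Napepld did. By this measure Adora2a was first in striatum and last in the other regions, while Daglb was last or next to last in each. The first place of Adora2a rests on the division. Undivided, Cnr1 (5500) and Adora1 (3961) stood above Adora2a (3237) in WT striatum. In WT hippocampus undivided Cnr1 (4895) stood above Mgll (4562) and Dagla (4523), and in WT PFC Cnr1 (4649) stood above Dagla (4154).

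Other genes of the 2 systems were read from 2 lists, 25 genes around endocannabinoids, of which 22 were in the table, and 26 around adenosine, of which 25 were. Between genotypes 0 of these genes were called by limma in any region or in the mean of regions, and in each region 1 or 2 genes of both lists together had an unadjusted p under 0.05, beside 5.89%, 6.81% and 5% of all genes in striatum, hippocampus and PFC. In the mean of regions 3 of 20 endocannabinoid and 1 of 23 adenosine genes had one, beside 9.37% of all genes. The smallest unadjusted p in striatum within the lists belonged to Plcb3, a phospholipase C, at 0.12 (adjusted p = 0.819), in hippocampus to Slc29a4, a membrane transporter, at 0.27 (adjusted p = 0.593), and in PFC to Entpd2, an ectonucleotidase, at 0.24 (adjusted p = 0.977), all as log2 differences.

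Between WT striatum and WT PFC the endocannabinoid list had 2 genes higher and 9 lower of 20 tested, with a median of -0.07 beside 0.01 over all genes. The adenosine list had 11 higher and 3 lower of 22, with a median of 0.27. Over all genes 29.2% were called higher and 27.8% lower in this contrast, 57% in all, so that the 11 of 20 called in the endocannabinoid list is near the background. Ptgs2, the cyclooxygenase that also oxidises endocannabinoids, averaged 129 ± 79.9 in striatum and 549 ± 81.6 in PFC (SD, n = 6 each), a log2 difference of -2.33 (SE 0.32, adjusted p = 6.78e-06). Pla2g4e, a phospholipase with a role in making anandamide precursors, differed by -1.26 (adjusted p = 3.28e-06). Nt5e, the ectonucleotidase that makes extracellular adenosine, averaged 461 ± 69.4 in striatum and 110 ± 8.27 in PFC (SD, n = 6 each), a log2 difference of 2.05 (SE 0.12, adjusted p = 3.15e-12). Nt5e was higher in striatum, as were Adora2a and Cnr1, and Ptgs2 was lower, as were the other 6 of the 8 genes. Both were named for their large differences, so a shared direction is not read as a link. Slc28a3, a nucleoside transporter, was listed at 0 in all 6 WT PFC libraries and at 6.995 to 54.5 in WT striatum.

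Between WT striatum and WT hippocampus 3 endocannabinoid genes were higher and 6 lower of 20, and 7 adenosine genes were higher and 4 lower of 22, beside 24.1% higher and 23.9% lower of all genes. Plcb4, another phospholipase C, was at 1.71 (adjusted p = 4.93e-15), Hrasls, an acyltransferase, at 1.36 (adjusted p = 2.74e-12), Ptgs2 at -2.89 (adjusted p = 6.42e-07) and Cnrip1, a protein that binds the cannabinoid receptor, at -0.87 (adjusted p = 2.61e-12). Nt5e was at 1.78 (adjusted p = 3.54e-11) and Slc29a1, an equilibrative nucleoside transporter, at 0.74 (adjusted p = 3.97e-08), while Slc29a4 was at -1.24 (adjusted p = 3.65e-09). Between WT hippocampus and WT PFC 3 endocannabinoid genes were higher and 7 lower of 20, and 5 adenosine genes were higher and 3 lower of 22, beside 23.9% higher and 22.9% lower of all genes. Slc29a4 was higher, with a mean of 1120 in hippocampus and 165 in PFC (2.75, adjusted p = 1.07e-14), while Dpp4, which in humans binds adenosine deaminase, was lower (-1.83, adjusted p = 1.15e-08), as was Plcb4 (-1.76, adjusted p = 6.83e-15).

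The genes with profiles nearest to those of the 8 were looked for among 13997 genes with a mean of at least 50 over the 34 libraries. Distance was the root mean square difference of centred log2 profiles, a measure set mainly by the regions. Gpr6 (0.502), Slc35d3 (0.576) and Drd2 (0.612) came nearest to Adora2a. Sec14l2 (0.0865), Prkce (0.0949) and Pcdh1 (0.0955) came nearest to Adora1, and Camkk1 (0.0934), Pcdh1 (0.0978) and Gpd1 (0.104) to Dagla. For Mgll the nearest were Jdp2 (0.105), Golga7b (0.133) and Zfpm1 (0.142), for Faah Arhgef25 (0.112), Zbtb18 (0.136) and Anxa11 (0.168), and for Napepld Dhx33 (0.137), Ppfia2 (0.155) and Ppm1e (0.158).

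Deviations of each library from its group's mean take out the mean levels of the regions. They keep differences between libraries of a group, such as those in cortical markers within striatum. Over the 34 libraries, which share dissection and scaling, Dagla was most like Adora1, with Pearson r = 0.854. For Adora1 the nearest was Sort1, at 0.855, followed by Dagla. Faah was most like Slc30a3 (0.906), Mgll most like Stac2 (0.901), Cnr1 most like Lpl (0.804), Adora2a most like Syndig1l (0.793), Daglb most like Cyp46a1 (0.704) and Napepld most like Mturn (0.685). These are descriptions over libraries that include the 5 striatal libraries high in cortical markers. They also include the libraries on code 31-67M, which had the highest Dagla and the highest Adora1 of each region. The part of these libraries in the correlations was not tested.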

How the data were processed

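Libraries had been made with the TruSeq RNA Sample Prep Kit v2, per the labels' protocols. Per the submitters' processing notes the build was GRCm38 and the tools were DESeq2 1.26.0, Salmon 1.1.0 and R 3.6.2; the role of each is not given in the sources used here. The deposited values are a signal, taken here from the tools named and from the values as estimated gene counts divided by a scaling factor per library (normalized counts), and each gene in the table reaches 10.2 or more in at least 1 library. They are not whole numbers, so reads and depth could not be recovered and no counting interval is given. Columns were matched to libraries by their titles, and 18533 of 18548 gene IDs matched GENCODE M21.

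Here log2(value + 1) was fitted with limma 3.58.1 (trend and robust) in R 4.3.3, for genes with a mean of at least 10 in the libraries fitted, with Benjamini-Hochberg adjustment over all genes of the fit and a threshold of 0.05. HT was compared with WT within each region. Region contrasts and contrasts over all 34 libraries had the column code as a random block (consensus correlation 0.0503 in HT, 0.0241 in WT, 0.0429 over all), since 10 codes recur in 3 regions. The code 31-67M was split by genotype. Fold changes on the log2(value + 1) scale understate those of low genes. Exact permutation tests over libraries were 2-sided. The fits were tested on simulated data. Other tools were Python 3.11.15 with numpy 2.4.6, pandas 2.3.3 and matplotlib 3.10.9.

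The 8 genes, the pathway and marker lists and the rules for genes named were chosen with earlier results of these data known. Named pathway genes are the 3 largest differences in each direction that passed, per list and WT region contrast, of which examples are given, and any called between genotypes; the smallest p between genotypes was added afterwards. Leaving out the 5 striatal and 2 PFC libraries with high marker sums was chosen after seeing the data. Of 561 pairs of libraries 0 held identical values. Replicate numbers were not used to pair libraries in the main fits.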

Additional observations from a re-analysis of the deposited data

Results flagged for a closer look

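In 3 of 48 groups, 8 genes in 6 groups each, 1 library lay far from the rest of its group, where chance gives about 1 group in 20. Dagla in PFC was 4734 in WT replicate 6, whereas the other 5 WT libraries had 3897 to 4174. Adora1 in hippocampus was 10877 in HT replicate 1, whereas the other 4 HT libraries had 8662 to 9287. Both libraries carry the code 31-67M. Adora2a in PFC was 251 in WT replicate 5, whereas the other 5 WT libraries had 64.7 to 115; that library also had the highest PFC sum of spiny neuron markers, 19722.

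The third library with code 31-67M, striatal HT replicate 1, had the highest Dagla (2389), Adora1 (4751), Mgll (4117) and Faah (991) of the 12 striatal libraries. In hippocampus the library with that code was highest also for Faah (4135), and in PFC it ranked 7 of 11 for Faah (2863).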

How the results depend on the processing

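Between genotypes 0 of 8 genes were called in any region, in the mean of the regions or in the differences between regions, under every alternative run: other pseudocounts (0.5 and 5), no filter, other scalings, other variance settings, libraries by the start of their code, exact permutation and each library left out (0 to 0 called). The fit with the replicate number as a block also called 0 of 8 in each region. Same-numbered HT and WT libraries had median correlations of -0.071, 0.05 and 0.021 in striatum, hippocampus and PFC. Libraries that share a code across regions had a median of only 0.086, so these correlations cannot show whether the numbers pair libraries. Without the block on column codes the region counts were 8, 7 and 6 as before. Over all alternatives the counts called were 7 to 8 for striatum against PFC in both genotypes, 6 to 8 in HT and 7 to 8 in WT for striatum against hippocampus, and 6 to 7 for hippocampus against PFC. Beside them, 8765 to 10394 of all genes in HT and 8626 to 10516 in WT were called for striatum against PFC. For striatum against hippocampus 6512 to 8106 in HT and 6702 to 8407 in WT were called. For hippocampus against PFC 6382 to 8277 in HT and 6748 to 8760 in WT were called. No difference changed sign while called. Calls changed for Cnr1, Dagla and Daglb only, in 33 of 1296 refitted region values. Scaling to equal library totals moved the median of all genes to 0.16 in HT and 0.15 in WT for striatum minus PFC and the share of calls that were higher to 69.9% in HT and 69.7% in WT, against 51.3% in HT and 51.1% in WT as deposited. For hippocampus minus PFC the shift was to 0.11 in HT and 0.10 in WT, with 67.6% of calls higher in HT and 66.7% in WT, against 51.5% in HT and 51.1% in WT as deposited. Under it Cnr1 was called between striatum and hippocampus (0.17 in HT, 0.21 in WT), Dagla between hippocampus and PFC (0.21 in both), and Daglb was not between striatum and hippocampus in HT (-0.14, adjusted p = 0.0665). With codes beginning with 35 only, Cnr1 was not called between striatum and PFC (0.15 in HT, 0.17 in WT). Over all genes the count called between genotypes in the mean of regions was 16 and ran from 5 to 48 over the alternatives (29 without the block on codes, 48 without the code 31 libraries, 9 with codes beginning with 35 only), and within striatum, hippocampus and PFC it reached 8, 6 and 2. The causes were not tested. Depth is unknown, and Adora2a outside striatum, at 29.3 to 251, has the widest intervals.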
